A study of Mus musculus with 26 samples.

Results

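The genes described here are 47 that act in DNA replication and S phase, out of 19938 genes measured on 26 Affymetrix Mouse Gene arrays. They were chosen by symbol, as probe sets that carry a single gene symbol, with the brightest probe set on average standing for each gene, and all 47 had one. Each value is a log2 intensity, so a difference of 1 is a doubling of signal. The members fall into 9 roles, namely origin licensing (4 genes), the MCM helicase (6), helicase activation (6), the sliding clamp and its loader (6), polymerases and primase (6), Okazaki fragment processing and single-strand binding (4), nucleotide supply (5), regulators of the G1 to S transition (7) and chromatin copying (3).

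All arrays came from murine Ba/F3/gp130 cells, a line labelled pro-B that depends on interleukin-3 or Hyper-IL-6, and the groups ask how natural and synthetic IL-22 receptors act on gene expression. Every culture carried gp130, was maintained on Hyper-IL-6 (IL-6 fused to its soluble receptor), and was then washed 4 times and starved without serum for 4 h. Cells with the natural receptor chains IL-10R2 and IL-22Rα1 were left untreated (4 arrays, replicates 2, 3, 4 and 5) or given IL-22 (4 arrays, replicates 1, 2, 3 and 5). Cells with synthetic receptors, in which IL-10R2 carries an mCherry nanobody (VHH) and IL-22Rα1 a GFP nanobody, were left untreated (6 arrays), given the GFP-mCherry fusion (6 arrays) or given mCherry-Fc (6 arrays), an Fc fusion of mCherry. Treatment was 100 ng/ml of purified protein for 2 h. Untreated cells received no control protein, and whether either line is a single clone is not given in the sources used here.

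In G1 the origin recognition complex, Cdc6 and Cdt1 load the MCM helicase onto origins, and at the start of S phase the helicase is switched on by Cdc45 and the GINS complex. Polymerases, the PCNA clamp and its loader then copy both strands, while ribonucleotide reductase, thymidylate synthase and thymidine kinase supply the building blocks. Many of these genes are textbook targets of the E2F transcription factors, and in cytokine-dependent lines such as Ba/F3 entry into S phase depends on the cytokine.

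Here 4 promoter stretches are shown as examples of members with an E2F motif match, chosen because Gins3, Mcm6 and Cdca7 fell with IL-22 while Cdca7 and Mcm5 rose with the ligands of the synthetic receptors. Other members that were called, among them Slbp, E2f1, Rpa1, Fen1, Rfc4 and Pola2, have a window with 0 matches. Sequences are from RefSeq on GRCm38.p6, read 5′ to 3′ on the strand of the gene, and capitals mark a match to an E2F motif, searched on both strands as TTTCCCGC, TTTCGCGC, TTTGCCGC or TTTGGCGC. The Gins3 stretch, chr8:95633459-95633558 on the plus strand, ends 1 base before the annotated start. The Mcm6 stretch is chr1:128359762-128359861 on the minus strand, that of Cdca7 is chr2:72476087-72476186 on the plus strand, and that of Mcm5 is chr8:75109310-75109409 on the plus strand. In Mcm6 and Mcm5 the capitals hold 2 matches that overlap on opposite strands.
Gins3: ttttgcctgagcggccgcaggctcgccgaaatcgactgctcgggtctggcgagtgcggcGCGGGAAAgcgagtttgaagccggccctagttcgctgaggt
Mcm6: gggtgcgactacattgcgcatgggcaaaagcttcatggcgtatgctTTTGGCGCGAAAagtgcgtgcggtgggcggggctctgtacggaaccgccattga
Cdca7: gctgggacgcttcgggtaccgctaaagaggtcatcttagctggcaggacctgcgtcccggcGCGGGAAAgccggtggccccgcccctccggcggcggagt
Mcm5: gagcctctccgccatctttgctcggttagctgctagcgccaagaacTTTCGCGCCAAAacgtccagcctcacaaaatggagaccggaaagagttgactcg

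A RefSeq window of 250 bases before to 50 after the start was on hand for 40 of the 47 members, and 18 of the 40 (45.0%) held at least 1 E2F match. Counted by window, 38.3% of the members' 47 windows and 2.26% of all 32851 windows held one, or 2.85% of the 21262 windows of protein-coding genes. The STAT motif TTCNNNGAA stood in 8.51% of the members' windows and 8.3% of all windows, in Cdc45, Cdca7, Lig1 and Mcm5. A CCAAT box stood in 61.7% of the members' windows against 37.4% of all. Of the members with a window, an E2F match stood in 7 of 10 that IL-22 lowered, 2 of 2 that it raised and 9 of 28 that passed in neither direction. For GFP-mCherry these counts were 1 of 1 lowered, 7 of 10 raised and 10 of 29 not passed, and for mCherry-Fc 7 of 10 raised and 11 of 30 not passed. Matches describe the letters in these windows only.

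Over all genes, arrays of a group correlated at 0.99 to 0.998. The members had mean log2 intensities between 6.87 (Orc1) and 11.41 (Pcna), above the median of 6.53 over all genes, which is why counts among genes with a mean of at least 7 are given beside those over all genes. Of the pro-B markers, Csf2rb (12.08), Ptprc (10.67), Cd79a (9.55), Il3ra (9.01) and Cd79b (8.98) were bright, whereas Pax5 (5.39), Vpreb1 (5.23), Rag1 (4.91) and Ebf1 (4.67) lay below that median, as did the 4 T cell markers (4.51 to 6.24). Of the other 3 measured pro-B markers, Vpreb2 (7.13) lay above that median, and Igll1 (6.28) and Vpreb3 (5.93) lay below it. Of the 6 myeloid markers 3 were lower and 1 higher in untreated synthetic than in untreated natural receptor cells. Itgam stood at 5.59 against 10.34, Mpo at 7.21 against 8.99, Lyz2 at 5.06 against 6.52, Prtn3 at 10.59 against 10.02, Csf1r at 6.04 against 6.23 and Elane at 6.09 against 6.16. The part of these differences between the lines in the results was not tested. The targeted receptor chains are not members and were not read here.

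Replicate numbers split most groups, and in most of them a larger share of members than of all genes did not overlap. Low numbers are natural 1 to 3 and synthetic 7 to 11, and high ones natural 4 and 5 and synthetic 12 to 15, a split noticed in the principal components of the data and of a meaning that the labels do not give. In untreated natural receptor cells 35 of 47 members were lower in both high-numbered arrays than in both low-numbered ones and 1 was higher, so 76.6% of members against 47.5% of all genes did not overlap. In untreated synthetic receptor cells the direction was the other way, with 27 members higher and 2 lower in the high numbers (61.7% of members, 42.6% of all genes), and mCherry-Fc arrays showed 29 higher and 2 lower (66% and 38.1%). GFP-mCherry arrays showed little of it, with 2 members higher and 0 lower (4.26% of members, 13.5% of all genes). With IL-22, where replicate 5 is the only high number, directions were mixed, with 12 members higher and 21 lower. That was 70.2% of members beside 63.8% of all genes. For this reason the treatment comparisons and the differences of responses are also given within the low and within the high numbers. The comparison between the untreated lines was not fitted within a range. Shares without overlap, here and below, are given over all genes only and not for those with a mean of at least 7. They are not read as a trait of the members. Member counts within a range stand without the share of all genes called there, and are not read as a trait of the members either.

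**Figure D1:**
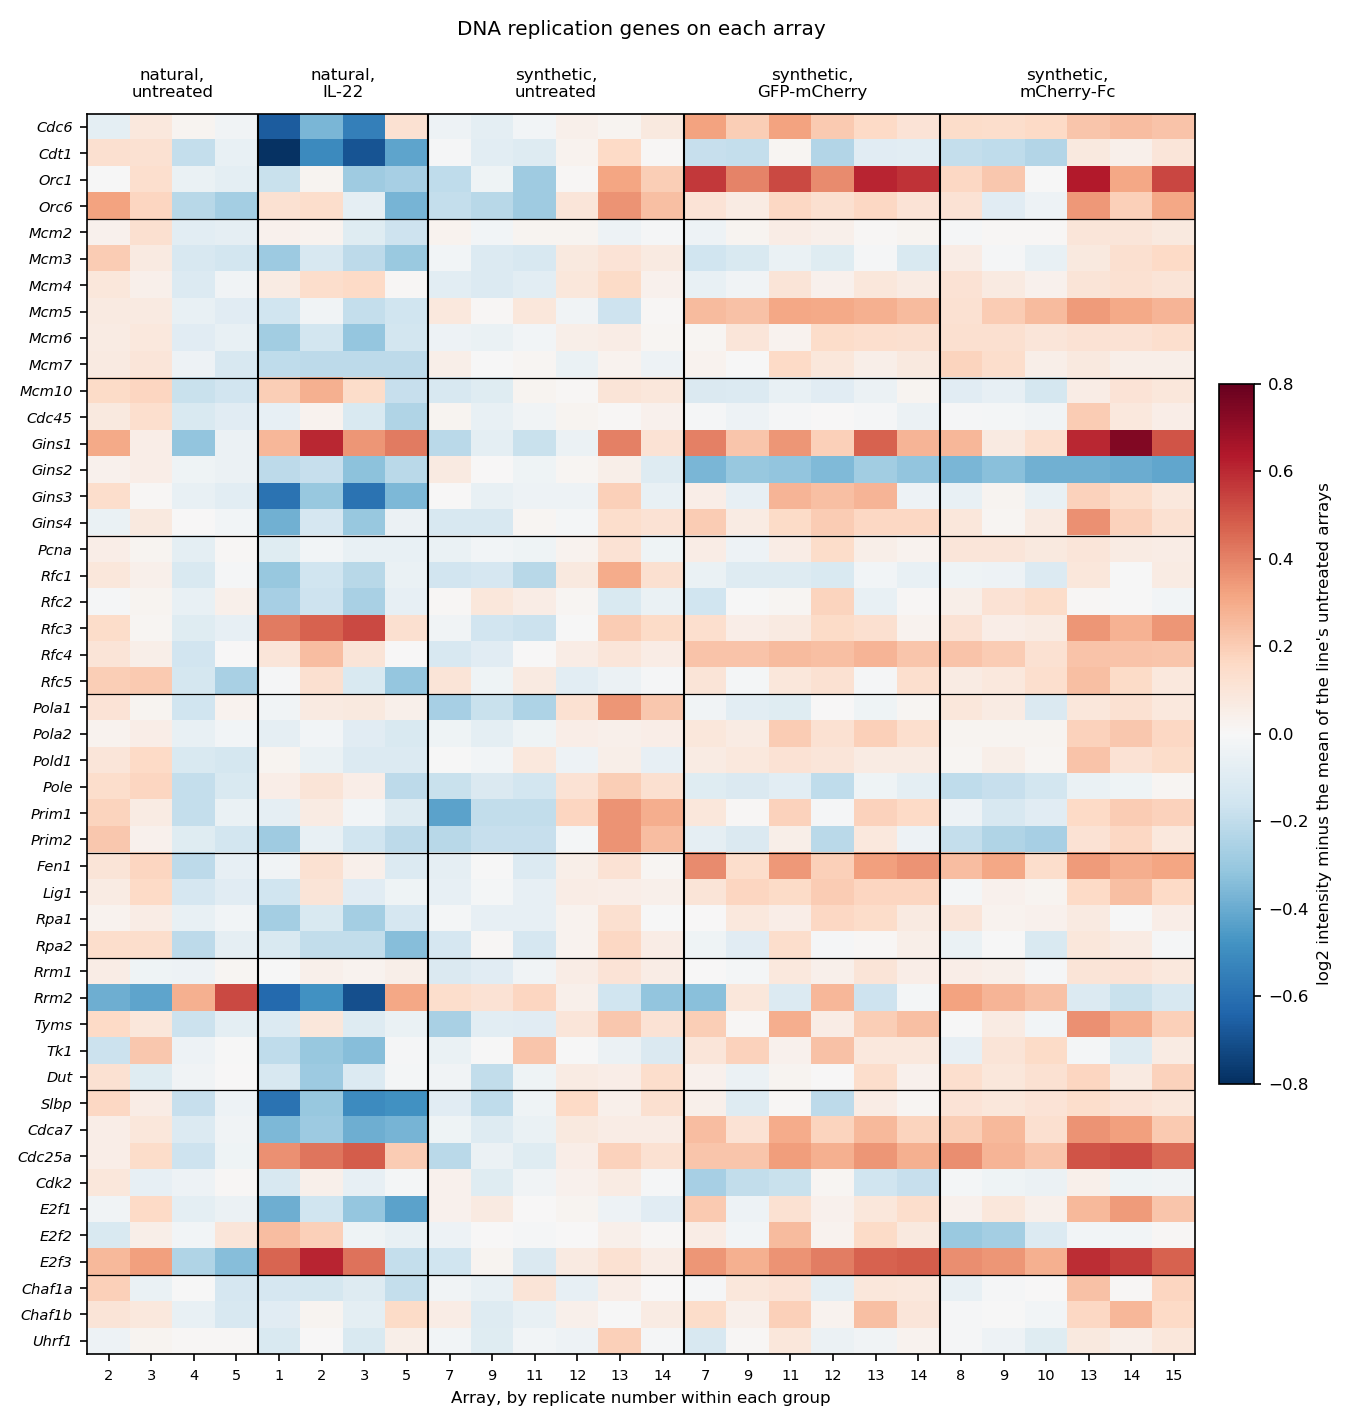
Log2 intensity of the 47 genes (rows, grouped by role) on each of the 26 arrays (columns, grouped by treatment and ordered by replicate number), as the difference from the mean of the untreated arrays of the same line. Cdt1, Slbp, Gins3 and Cdca7 are blue on all 4 IL-22 arrays, Gins2 is blue on every treated array, and Orc1, Mcm5 and E2f3 are red on the 6 GFP-mCherry arrays.

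IL-22 on its natural receptors lowered some of the members, most of them licensing, helicase or G1/S genes, and raised fewer. With limma and Benjamini-Hochberg adjustment over 19938 genes at 0.05, 11 of the 47 members fell and 2 rose, beside 6.03% of all genes lower and 5.39% higher (11.4% in either direction). Among genes with a mean of at least 7, 15.6% were lower and 11.9% higher (27.5% in either direction), and of the 46 members in that set 14 were lower and 3 higher. The members' median change was -0.08, beside -0.02 over all genes. Since these are whole cultures, a smaller share of cells in S phase and less RNA of these genes in each cell cannot be told apart. Of the 6 myeloid markers, Mpo stood at 8.99 untreated and 7.97 with IL-22, Itgam at 10.34 and 9.66, Lyz2 at 6.52 and 5.85 and Csf1r at 6.23 and 6.05, while Prtn3 stood at 10.02 and 10.31 and Elane at 6.16 and 6.40, and 1 was called higher and 0 lower. Of the 2 erythroid markers Klf1 stood at 8.35 and 7.23 and Alas2 at 5.49 and 5.53, with 1 called lower. The part of these markers' cell types in the result was not tested.

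Cdt1, which brings the MCM helicase to origins, fell the most of the members. It stood at 9.17, 9.16, 8.85 and 8.98 in untreated replicates 2, 3, 4 and 5, and at 8.25, 8.53, 8.35 and 8.62 in IL-22 replicates 1, 2, 3 and 5. All 4 IL-22 arrays lay below all 4 untreated arrays, and the fall was 0.60 on the log2 scale (SE 0.09, 1.52-fold, limma's adjusted p = 1.88e-05). Cdc6, the ATPase that acts with Cdt1 in loading, stood in the same order at 7.63, 7.79, 7.73 and 7.68 untreated and at 7.04, 7.34, 7.16 and 7.83 with IL-22. Replicates 1, 2 and 3 lay below the untreated arrays and replicate 5 above them, so the groups overlap. The change of -0.37 (SE 0.10, adjusted p = 0.0127) was not called with the replicate number as a block (-0.26, adjusted p = 0.171), nor without IL-22 replicate 1 or 3 (largest adjusted p = 0.0924). Within the high numbers, where only replicate 5 had IL-22, the change of Cdc6 was 0.13. The origin recognition subunits Orc1 (-0.17, adjusted p = 0.48) and Orc6 (-0.04, adjusted p = 0.929) did not pass.

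Of the 6 MCM subunits, Mcm3, Mcm6 and Mcm7 fell. Mcm6 stood at 10.39, 10.41, 10.24 and 10.27 untreated and at 10.05, 10.18, 10.02 and 10.18 with IL-22. Mcm7 stood at 10.96, 10.99, 10.85 and 10.76 untreated, against 10.69, 10.68, 10.68 and 10.68 with IL-22. In both genes every IL-22 array lay below every untreated array, with changes of -0.22 (SE 0.06, adjusted p = 0.00713) for Mcm6 and -0.21 (SE 0.06, adjusted p = 0.0108) for Mcm7. Mcm7 lost its call without untreated replicate 3 (adjusted p = 0.0557). Mcm3 overlapped between the groups (10.18 to 10.53 untreated, 10.03 to 10.20 with IL-22), with a change of -0.23 (SE 0.07, adjusted p = 0.0404). Leaving out any of IL-22 replicates 1, 3 and 5 or untreated replicates 2 and 3 ended its call (adjusted p up to 0.198). Mcm2, Mcm4 and Mcm5 had changes of -0.05, 0.09 and -0.13 and did not pass.

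The GINS complex, a ring of 4 proteins that joins Cdc45 and MCM to form the active helicase, was split. Gins3 stood at 7.95, 7.82, 7.75 and 7.73 untreated and at 7.22, 7.51, 7.22 and 7.45 with IL-22. Gins2 stood at 8.24, 8.26, 8.17 and 8.16 untreated and at 8.00, 8.02, 7.88 and 7.99 with IL-22. The groups did not overlap in either gene, and the changes were -0.46 (SE 0.09, adjusted p = 0.000364) for Gins3 and -0.24 (SE 0.05, adjusted p = 0.0016) for Gins2. Gins1, by contrast, had values of 7.59, 7.34, 6.97 and 7.24 untreated and 7.55, 7.89, 7.64 and 7.70 with IL-22. These overlap by 1 array, and the change of 0.41 (SE 0.14) missed the threshold (adjusted p = 0.0563). Gins4 (-0.22, adjusted p = 0.0733), Cdc45 (-0.10) and Mcm10 (0.11) did not pass either.

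Among the G1/S regulators, Slbp, the histone mRNA stem-loop binding protein that is made as cells enter S phase, stood at 9.48, 9.37, 9.13 and 9.27 untreated and at 8.72, 9.01, 8.81 and 8.83 with IL-22. The groups did not overlap, and Slbp fell by 0.47 (SE 0.08, adjusted p = 9.97e-05). A second probe set of the gene gave -0.31 (adjusted p over all probe sets 0.0264). Cdca7, an E2F and MYC target that recruits the chromatin remodeller HELLS, stood at 9.98, 10.02, 9.82 and 9.90 untreated and at 9.57, 9.64, 9.54 and 9.56 with IL-22. It fell by 0.36 (SE 0.06, adjusted p = 0.000122), with all IL-22 arrays below all untreated ones. E2f1, an activator of S phase genes, fell by 0.32 (SE 0.08, adjusted p = 0.00382), from 7.47 to 7.71 over the untreated arrays to 7.12 to 7.39. E2f2 (0.08) and E2f3 (0.33, adjusted p = 0.136) did not pass.

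Cdc25a and Rfc3 were the 2 members that rose. Cdc25a, the phosphatase that removes the inhibitory phosphate from Cdk2, stood at 8.60, 8.69, 8.38 and 8.51 untreated and at 8.91, 8.97, 9.03 and 8.75 with IL-22. Every IL-22 array lay above every untreated array, with a change of 0.37 (SE 0.08, adjusted p = 0.00282). Rfc3, a subunit of the clamp loader, rose by 0.38 (SE 0.09, adjusted p = 0.0048) from 8.20, 8.07, 7.96 and 7.99 to 8.47, 8.53, 8.58 and 8.18. Replicate 5 overlapped the untreated range here. The single-strand binding subunit Rpa1 fell by 0.20 (SE 0.06, adjusted p = 0.0175), a call that was lost with the block (adjusted p = 0.0665) and without IL-22 replicate 1 or 3 or untreated replicate 3 (up to 0.0769).

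In all, 10 members were lower on every IL-22 array than on any untreated one and 1 was higher, beside 6.34% and 5.03% of all genes. Within the low numbers (3 IL-22, 2 untreated arrays) 16 members fell and 2 rose, and within the high ones 1 member, E2f1, was called lower (-0.36, adjusted p = 0.0484). The high numbers hold 1 IL-22 and 2 untreated arrays, the spread of the lone IL-22 array is borrowed from the remaining groups, and calls missed there do not show a dependence on the range. A fit to the 8 natural receptor arrays alone called 4 members lower instead of 11. None of the 6 polymerase and primase genes, 5 nucleotide supply genes or 3 chromatin copying genes passed, with changes between -0.38 (Rrm2, SE 0.20) and 0.04 (Pola1). Rrm2, the small subunit of ribonucleotide reductase, differed far more by number than by treatment, at 9.98 and 9.95 in untreated replicates 2 and 3 against 10.66 and 10.90 in 4 and 5, and at 9.67 to 9.89 in IL-22 replicates 1 to 3 against 10.68 in 5.

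**Figure D2:**
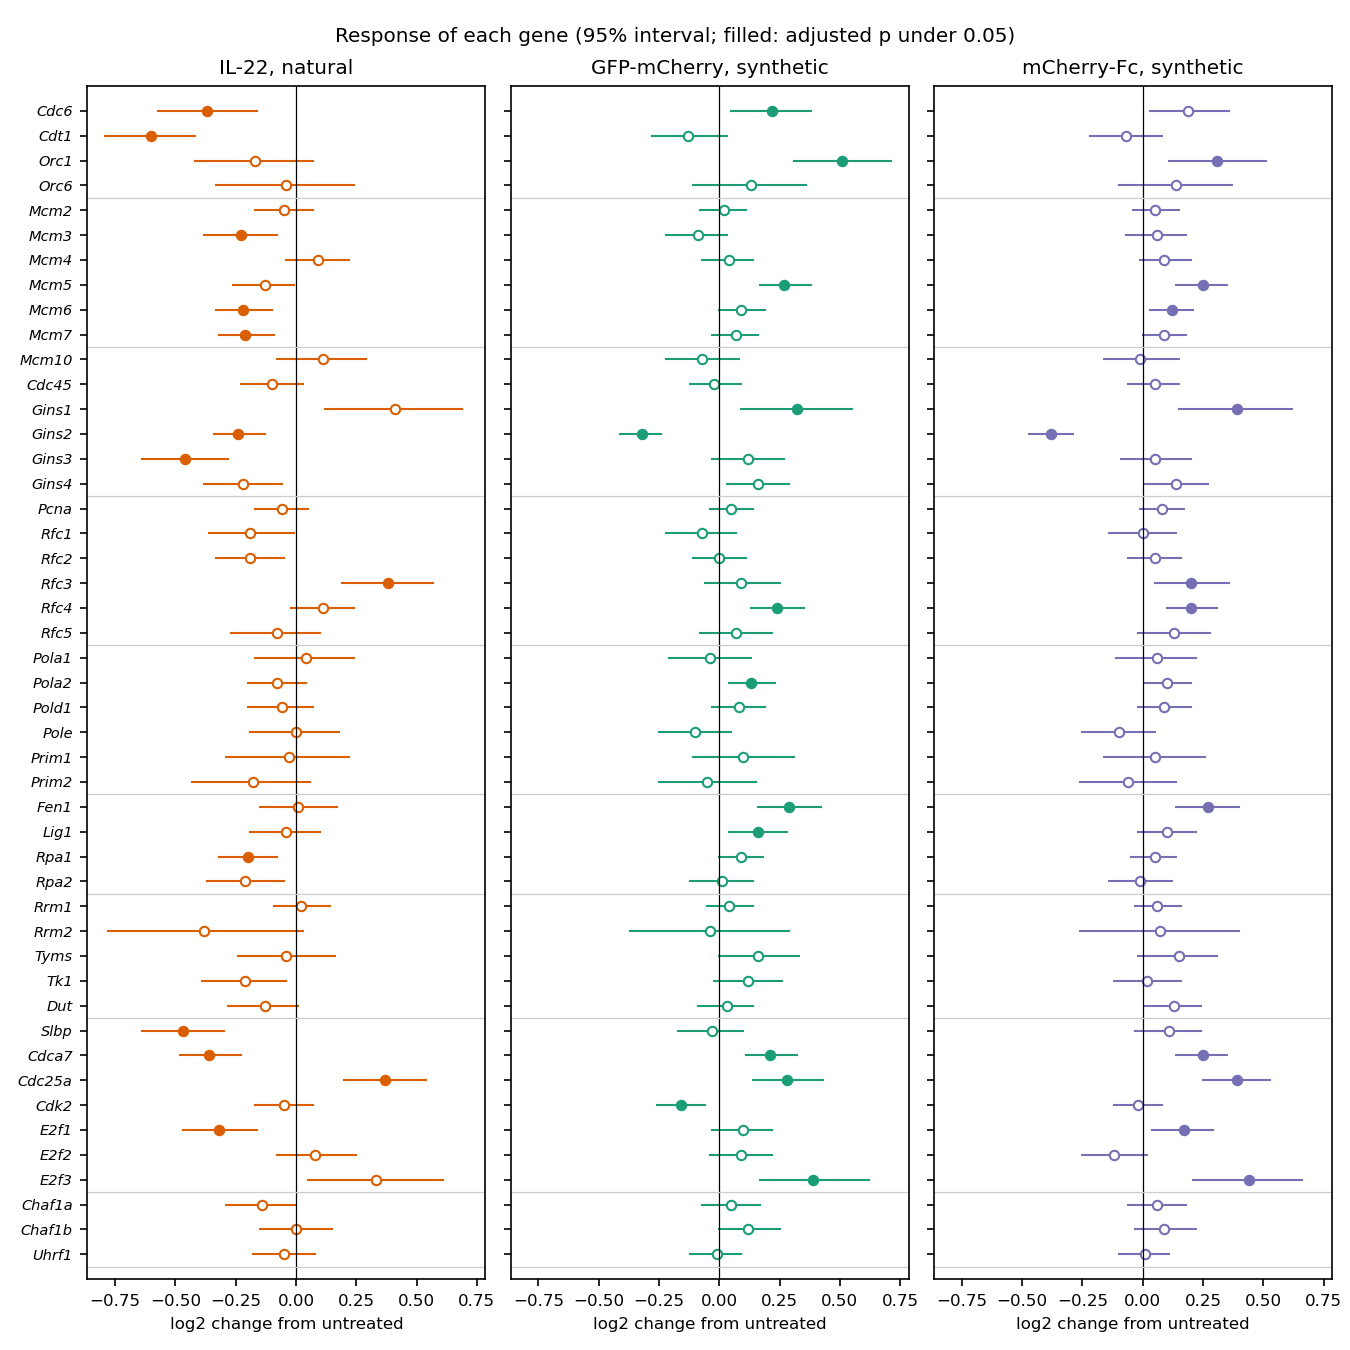
Log2 change of each of the 47 genes from the untreated arrays of its line, for IL-22 (n = 4 against 4), GFP-mCherry and mCherry-Fc (n = 6 against 6 each), with 95% intervals of the model. Filled points passed at an adjusted p of 0.05, 13 for IL-22, 13 for GFP-mCherry and 12 for mCherry-Fc, and those of the first panel lie mostly to the left of 0, those of the others mostly to the right.

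On synthetic receptors the calls went mostly the other way. GFP-mCherry raised 11 members and lowered 2, beside 14.2% of all genes higher and 11.8% lower (26% in either direction). mCherry-Fc raised 11 and lowered 1, beside 14% and 13% (26.9% in either direction). Median changes of the members were 0.08 and 0.09, against -0.04 over all genes in both. Among genes with a mean of at least 7 the all-gene medians were 0.08 and 0.09 too, and 33.6% and 33.4% of those genes were higher and 11.8% and 8.47% lower (45.4% and 41.8% in either direction). Of the 46 members there, 11 and 10 were higher and 2 and 1 lower. The members' median of 0.08 in this set, and their share called higher, were thus no larger than those of all genes of such brightness. Both comparisons use the same 6 untreated arrays.

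Orc1, the ATPase subunit of the origin recognition complex, rose the most with GFP-mCherry. Its untreated arrays had a lowest, median and highest value of 6.38, 6.65 and 6.98, its GFP-mCherry arrays 7.04, 7.21 and 7.27, and its mCherry-Fc arrays 6.66, 6.93 and 7.30. The GFP-mCherry arrays lay above all untreated ones, whereas the mCherry-Fc arrays overlapped them. The changes were 0.51 (SE 0.10, adjusted p = 0.000321) and 0.31 (SE 0.10, adjusted p = 0.0204), and the second was lost with the replicate number as a block (adjusted p = 0.0535) and without untreated replicate 7 or 11 or mCherry-Fc replicate 13 or 15 (up to 0.0702). Cdc6 ran from 7.47 to 7.63 untreated, from 7.66 to 7.87 with GFP-mCherry and from 7.69 to 7.80 with mCherry-Fc. Neither treated group overlapped the untreated one, yet of its changes of 0.22 (adjusted p = 0.0468) and 0.19 (adjusted p = 0.077) only the first passed, and that one was lost on leaving out any of 10 of the 12 arrays (up to 0.0942), each but GFP-mCherry replicate 14 and untreated replicate 14. Cdt1 had changes of -0.13 and -0.07 and passed in neither.

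Mcm5 alone among the MCM subunits was called higher with GFP-mCherry. The untreated arrays had a lowest, median and highest value of 9.97, 10.15 and 10.23, those with GFP-mCherry 10.37, 10.40 and 10.45, and those with mCherry-Fc 10.26, 10.40 and 10.48. Both treated groups lay wholly above the untreated arrays, by 0.27 (SE 0.05, adjusted p = 0.000224) and 0.25 (SE 0.05, adjusted p = 0.000777). Mcm6 rose by 0.12 with mCherry-Fc (adjusted p = 0.0476), a call lost with the block (adjusted p = 0.256) and on leaving out any of 10 of the 12 arrays (up to 0.0964), each but untreated replicates 12 and 13. Its value with GFP-mCherry was 0.09 (adjusted p = 0.124). Changes of the other 4 subunits lay between -0.09 and 0.09.

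Gins2 fell with both proteins. Its untreated arrays had a lowest, median and highest value of 8.34, 8.46 and 8.52, against 8.08, 8.13 and 8.17 with GFP-mCherry and 8.03, 8.06 and 8.11 with mCherry-Fc. No treated array reached the untreated range, and the changes were -0.32 (SE 0.04, adjusted p = 2.14e-06) and -0.38 (SE 0.04, adjusted p = 3.82e-07). Gins2 was thus lower in all 3 treated groups than in the untreated cells of the same line. Its partner Gins1 rose by 0.32 (SE 0.11, adjusted p = 0.0382) and 0.39 (SE 0.11, adjusted p = 0.0135), from 7.30 to 7.92 over the untreated arrays to 7.71 to 7.99 and 7.59 to 8.26. The groups overlap, and the first of these calls was lost on leaving out any of GFP-mCherry replicates 7, 11, 13 and 14 or untreated replicates 7, 9, 11 and 12 (up to 0.0971). Gins3 (0.12 and 0.05) and Gins4 (0.16 and 0.14) did not pass.

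Among clamp loader genes, Rfc4 had a lowest, median and highest value of 10.06, 10.22 and 10.29 untreated, 10.41, 10.43 and 10.46 with GFP-mCherry, and 10.31, 10.41 and 10.42 with mCherry-Fc. Both groups lay above the untreated arrays, by 0.24 (SE 0.05, adjusted p = 0.000988) and 0.20 (SE 0.05, adjusted p = 0.00496). Fen1, the nuclease that trims the flaps of Okazaki fragments, ran from 8.92 to 9.15 untreated, from 9.17 to 9.41 with GFP-mCherry and from 9.17 to 9.37 with mCherry-Fc. The ranges did not overlap, with rises of 0.29 (SE 0.06, adjusted p = 0.00119) and 0.27 (SE 0.06, adjusted p = 0.00264). Rfc3 rose with mCherry-Fc (0.20, adjusted p = 0.0472), a call lost with the block (adjusted p = 0.0773) and on leaving out any of untreated replicates 7, 9, 11 and 12 or mCherry-Fc replicates 13, 14 and 15 (up to 0.121).

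DNA ligase Lig1 (0.16, adjusted p = 0.0395) and the polymerase α subunit Pola2 (0.13, adjusted p = 0.0357) rose with GFP-mCherry. Their values with mCherry-Fc were 0.10 each and did not pass. Lig1 was lost on leaving out any of GFP-mCherry replicates 9, 11, 12, 13 and 14 or untreated replicates 7, 9 and 11, and Pola2 any of GFP-mCherry replicates 11 to 14 or those 3 untreated arrays, each with an adjusted p up to 0.0826.

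The G1/S regulators Cdc25a, E2f3 and Cdca7 rose with both proteins. Cdc25a had a lowest, median and highest value of 7.99, 8.21 and 8.39 untreated, 8.43, 8.49 and 8.56 with GFP-mCherry, and 8.43, 8.62 and 8.73 with mCherry-Fc, and E2f3, a transcription factor that drives entry into S phase, had 7.57, 7.77 and 7.85, then 8.01, 8.12 and 8.21, then 8.01, 8.15 and 8.32. Neither gene overlapped between treated and untreated arrays. Cdc25a rose by 0.28 (SE 0.07, adjusted p = 0.00316) and 0.39 (SE 0.07, adjusted p = 0.000181). For E2f3 the rises were 0.39 (SE 0.11, adjusted p = 0.00959) and 0.44 (SE 0.11, adjusted p = 0.00508), and its second probe set had 0.26 and 0.36 (adjusted p over all probe sets 0.166 and 0.0547). Cdca7, which IL-22 lowered, rose here by 0.21 (SE 0.05, adjusted p = 0.00274) and 0.25 (SE 0.05, adjusted p = 0.000876), from 9.48 to 9.66 untreated to 9.70 to 9.88 and 9.71 to 9.94.

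Cdk2, the kinase that starts S phase with cyclin E, fell with GFP-mCherry (-0.16, SE 0.05, adjusted p = 0.0139), although replicate 12 (10.56) lay within the untreated range of 10.45 to 10.61. With mCherry-Fc it had -0.02 (adjusted p = 0.78). E2f1 rose with mCherry-Fc (0.17, adjusted p = 0.0435). Within the high numbers the change was 0.31 (adjusted p = 0.00421) and within the low ones 0.03 (adjusted p = 0.825), and leaving out any of mCherry-Fc replicates 13, 14 and 15 or untreated replicates 7, 11, 12, 13 and 14 ended it (up to 0.123).

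Against untreated cells 10 members were higher on every GFP-mCherry array and 1 lower, beside 10% and 4.11% of all genes, and 8 were higher and 1 lower on every mCherry-Fc array, beside 7.85% and 3.46%. How many passed depended on the scaling of the arrays. Centring each array on its median moved the all-gene median from -0.04 to 0.06 and 0.07 and raised 23 members with GFP-mCherry and 29 with mCherry-Fc, with 1 lower in each. All genes then split into 4596 higher and 597 lower, and 4889 and 614, in place of 2839 and 2344, and 2788 and 2583. Quantile normalization gave 7 members higher and 3 lower with GFP-mCherry, and 8 and 2 with mCherry-Fc. Within the low numbers GFP-mCherry raised 16 and lowered 3, and within the high ones it raised 4 and lowered 4. For mCherry-Fc the counts were 11 and 1 in each range, without Mcm5 in the low numbers (0.13, adjusted p = 0.118) and Rfc4 in the high ones (0.15, adjusted p = 0.0848). Rrm1, Rrm2, Tyms, Tk1 and Dut, the nucleotide supply members, passed with neither protein, and their changes lay between -0.04 and 0.16.

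**Figure D3:**
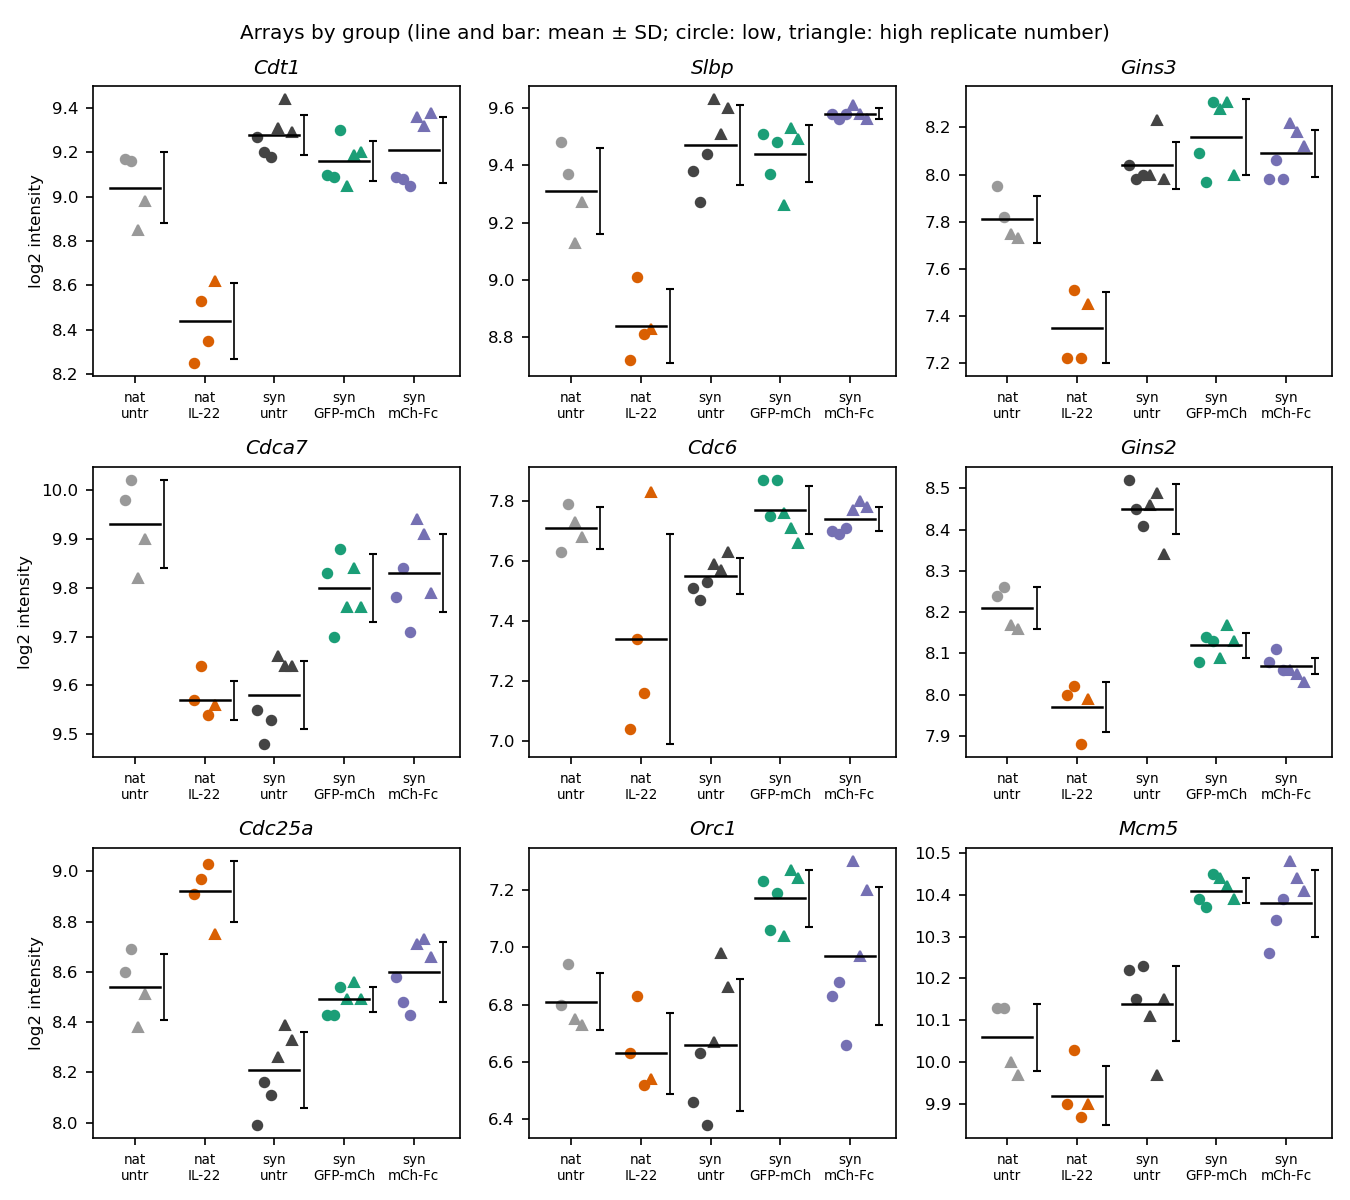
Log2 intensity of 9 genes on every array, by group (nat, natural receptors; syn, synthetic receptors; untr, untreated; GFP-mCh, GFP-mCherry; mCh-Fc, mCherry-Fc), with horizontal lines at the mean and bars of 1 SD; circles are low and triangles high replicate numbers, and each panel has its own axis. Cdca7 is lower with IL-22 but higher with both proteins on synthetic receptors, Cdc25a is higher with all 3 treatments, and Gins2 is lower with all 3.

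Whether the responses of the lines differ was tested directly, as the response to a protein on synthetic receptors minus the response to IL-22. For GFP-mCherry 13 members had a higher response and 0 a lower one, beside 9.23% and 4.4% of all genes (13.6% in either direction), and for mCherry-Fc 14 and 0, beside 8.76% and 4.6% (13.4%). Among genes with a mean of at least 7 25.3% were higher in both and 8.18% and 7.15% lower (33.5% and 32.4%), with 14 and 16 of 46 members higher and 0 lower. The members' median difference was 0.15 and 0.18, against -0.02 over all genes and 0.11 and 0.13 over genes with a mean of at least 7. Both tests share the IL-22 arrays and both sets of untreated arrays.

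Cdca7 differed the most by p, at 0.57 (SE 0.08, adjusted p = 9.97e-06) and 0.60 (SE 0.08, adjusted p = 4.73e-06). Its log2 level was 9.93 ± 0.09 (SD, n = 4) untreated and 9.57 ± 0.04 (n = 4) with IL-22, but 9.58 ± 0.07 (n = 6) untreated, 9.80 ± 0.07 with GFP-mCherry and 9.83 ± 0.08 with mCherry-Fc on synthetic receptors. The untreated lines thus started apart, and the treated groups of synthetic receptor cells lay between them. Slbp (0.44 and 0.58), Gins3 (0.58 and 0.52), Cdt1 (0.48 and 0.53) and E2f1 (0.42 and 0.49) differed as well, with adjusted p between 0.000301 and 0.00654. These 4 fell with IL-22, and apart from E2f1 with mCherry-Fc none passed on synthetic receptors, although the second Slbp probe set rose with mCherry-Fc (0.20, adjusted p over all probe sets 0.0397).

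Orc1 (0.68 and 0.49) and Mcm5 (0.41 and 0.38) differed too, though neither passed with IL-22 alone. The Orc1 difference for mCherry-Fc (adjusted p = 0.036) was lost on leaving out any of 10 of the 20 arrays, IL-22 replicates 1, 3 and 5, untreated natural replicates 2 and 3, untreated synthetic replicates 7, 9 and 11 and mCherry-Fc replicates 13 and 15 (up to 0.0818). Mcm6 (0.31 and 0.34), Mcm7 (0.27 and 0.30), Rpa1 (0.29 and 0.25), Gins4 (0.38 and 0.36) and Cdc6 (0.58 and 0.56) passed in both tests. With the replicate number as a block, Rpa1 (0.21, adjusted p = 0.131) and Gins4 (0.34, adjusted p = 0.065) kept their direction for mCherry-Fc but were not called. They were also lost there without IL-22 replicate 1 (up to 0.0609 and 0.0572), and Rpa1 without IL-22 replicate 3 or untreated natural replicate 3 too.

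Tk1 (0.33, adjusted p = 0.0393) passed only in the first test, and Mcm3 (0.29, adjusted p = 0.0431) and Dut (0.26, adjusted p = 0.0472) only in the second. With the block their adjusted p was 0.0596, 0.0509 and 0.17. Each was lost on leaving out single arrays, 11, 12 and 15 of the 20 in turn. Of Tk1, thymidine kinase, the second probe set had 0.32 and 0.33 (adjusted p over all probe sets 0.0329 and 0.0292).

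Cdc25a and Gins2, each called in 1 direction with all 3 treatments, did not pass, with differences of -0.09 (95% interval -0.31 to 0.14) and -0.08 (-0.22 to 0.05) for GFP-mCherry and 0.02 (-0.20 to 0.25) and -0.14 (-0.28 to -0.01) for mCherry-Fc. A p that misses the threshold does not show that these responses were alike, and the intervals hold the differences they allow. Within the low numbers 24 and 19 members had a higher response on synthetic receptors, and within the high numbers 2 (Cdca7 and E2f1) and 3 had, while Cdc6 had -0.01 and 0.06 there. The high numbers hold 1 IL-22 array, whose spread is taken from the other groups. Shares of all genes within each range are not given here, so these counts do not show a trait of the members.

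GFP-mCherry against mCherry-Fc, the comparison of a ligand for both nanobodies with a ligand for 1, gave no called member in either direction (limma), beside 0.722% of all genes higher and 0.371% lower (1.09%). Among genes with a mean of at least 7 it was 1.88% and 1.29% (3.17%), again with 0 members. At an unadjusted p under 0.05, 4 members passed. These were E2f2 (0.21, 95% interval 0.08 to 0.34, adjusted p = 0.166), Cdk2 (-0.14, -0.24 to -0.04, adjusted p = 0.254), Mcm3 (-0.15, -0.28 to -0.03, adjusted p = 0.389) and Slbp (-0.14, -0.27 to 0.00, adjusted p = 0.561). Slbp was lower on every GFP-mCherry array than on any mCherry-Fc array, the 1 member without overlap, beside 1.45% of all genes lower and 1.51% higher (2.96%). Orc1, with 0.20 (0.00 to 0.40, adjusted p = 0.58), had the next largest difference after E2f2. Within the low numbers 1 member was lower with GFP-mCherry, and within the high numbers 0 passed.

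Untreated synthetic receptor cells had higher signals than untreated natural receptor cells for a minority of the members, though more often than the reverse. Of the 47 members 18 were higher and 2 lower, beside 8.6% and 6.62% of all genes (15.2%), and the median difference was 0.16 against 0.01. Among genes with a mean of at least 7, 22.2% were higher and 13.7% lower (36%), beside 22 and 2 of 46 members, and the all-gene median there was 0.05. In 12 members every synthetic array lay above every natural one and in 1 below, beside 5.19% and 4.86% of all genes.

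Of the 6 polymerase and primase genes 5 were higher, beside 4 of the 6 MCM subunits and 3 of the 6 clamp and loader genes. Prim1, the catalytic primase subunit, had 9.05, 8.94, 8.68 and 8.82 in natural replicates 2, 3, 4 and 5, and a lowest, median and highest value of 9.03, 9.44 and 9.82 in synthetic receptor cells. The groups overlapped by 1 array on each side, and the difference was 0.59 (SE 0.11, adjusted p = 0.000494). Its partner Prim2 was 0.46 higher (SE 0.11, adjusted p = 0.00396), with 8.61 to 8.97 in natural and 8.99 to 9.57 in synthetic receptor cells. Both leading and lagging strand polymerase catalytic subunits, Pole (0.38, adjusted p = 0.00176) and Pold1 (0.32, adjusted p = 0.000284), were higher too, without overlap.

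In the clamp loader, Rfc2 had 9.57, 9.60, 9.52 and 9.62 in natural receptor cells and 9.99, 10.12 and 10.20 as lowest, median and highest value in synthetic ones. These did not overlap, with a difference of 0.53 (SE 0.06, adjusted p = 3.6e-07), the smallest p of the members. Rfc1 (0.33, adjusted p = 0.00362) and Rfc5 (0.28, adjusted p = 0.0182) were higher as well, while Rfc3 (0.07) and Rfc4 (0.15, adjusted p = 0.0931) did not pass. Rfc5 was lost without natural replicate 4 or 5 (up to 0.141).

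For the helicase, Mcm2 (0.21, adjusted p = 0.00451), Mcm3 (0.25, adjusted p = 0.0107), Mcm6 (0.22, adjusted p = 0.00336) and Gins2 (0.24, adjusted p = 0.000644) were higher. So were the ligase Lig1 (0.24, adjusted p = 0.00815) and Chaf1a (0.23, adjusted p = 0.0123), a subunit of the histone chaperone that follows the fork. Mcm3 was lost without natural replicate 4 or 5 (up to 0.0697), Lig1 without replicate 4 (0.061) and Chaf1a without replicate 5 (0.0768). Pola1, Gins4, Cdt1, Cdk2 and Mcm7, named after their values were seen, were higher by 0.15 to 0.31, and each lost its call on leaving out any of 3 to 6 of the 10 arrays, natural replicate 4 among them in every case. Cdca7 (-0.35, SE 0.06, adjusted p = 6.74e-05) and Cdc25a (-0.34, SE 0.08, adjusted p = 0.00272) were the 2 lower members. Both rose with both proteins on synthetic receptors, in comparisons that use the same 6 untreated synthetic arrays, so the signs are not independent.

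Natural replicate 4 carried weight here. Without it 10 members were higher, and without natural replicate 2 the count was 20. A fit to the 10 untreated arrays alone called 6 members higher in place of 18. Synthetic arrays 12 to 14 were the higher ones for Prim1 (9.63, 9.82 and 9.75, against 9.03 to 9.26 in replicates 7 to 11). Since the lines share no replicate number, the line and its set of replicate numbers cannot be told apart.

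**Figure D4:**
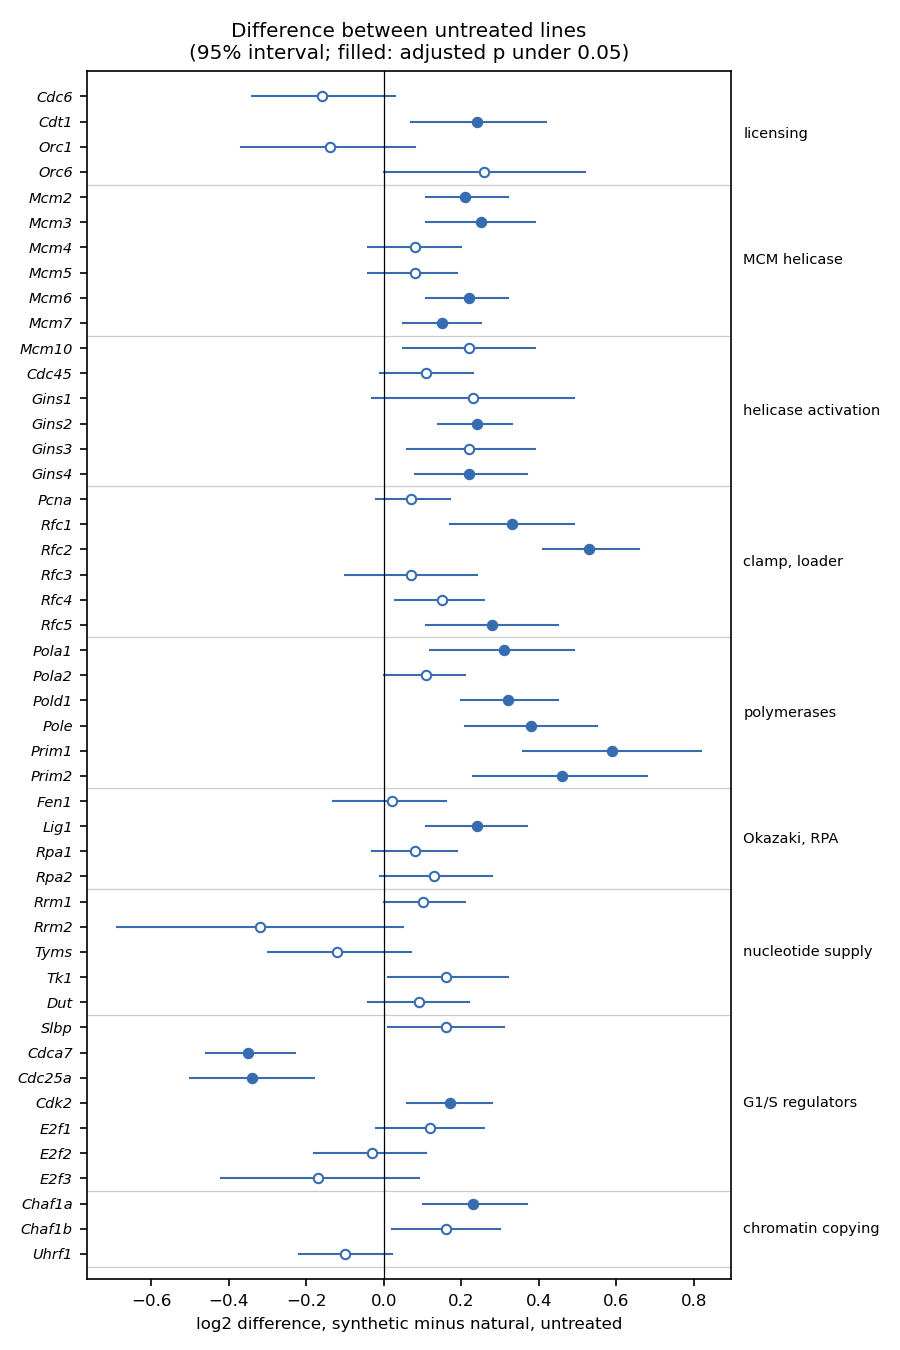
Log2 difference of each of the 47 genes between untreated synthetic and untreated natural receptor cells (n = 6 against 4, positive where synthetic is higher), with 95% intervals of the model and genes grouped by role. Filled points passed at an adjusted p of 0.05, 18 to the right of 0 and 2, Cdca7 and Cdc25a, to the left, and 5 of the 6 polymerase and primase genes are among those to the right.

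Across the 3 treatments against untreated cells, 22 of the 47 members passed in at least 1 and 25 in none. With IL-22, GFP-mCherry and mCherry-Fc in turn, 27.5%, 45.4% and 41.8% of genes with a mean of at least 7 passed in either direction. Their share passing in at least 1 treatment is not given here, so the 22 are not read as a trait of the members. The 25 include Pcna, the sliding clamp, whose changes were -0.06, 0.05 and 0.08 with IL-22, GFP-mCherry and mCherry-Fc (SE 0.04 to 0.05). Its second probe set had -0.05, 0.06 and 0.08. Uhrf1, which carries DNA methylation through replication, had -0.05, -0.01 and 0.01, and Rrm1, the large subunit of ribonucleotide reductase, 0.02, 0.04 and 0.06. For these 3 genes the 95% intervals lay within -0.18 and 0.17.

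Other genes of the replication pathway were read from lists of the same roles, and their counts are to be read against the shares of all genes given above. For IL-22 these were 6.03% lower and 5.39% higher over all genes, and 15.6% and 11.9% among genes with a mean of at least 7. For GFP-mCherry they were 14.2% higher over all genes and 33.6% in that brighter set, and for mCherry-Fc 14% and 33.4%. Several of the lists' shares lie near or below those of the brighter set, and none was tested against it. Of 15 further licensing and firing factors, IL-22 lowered 3 and raised 0, with Ticrr, the Treslin that recruits Cdc45, at -0.53 (adjusted p = 2.48e-06), Orc5 at -0.48 (adjusted p = 8.18e-05) and Dbf4, the activator of the Cdc7 kinase, at -0.36 (adjusted p = 0.0195). GFP-mCherry and mCherry-Fc lowered Ticrr as well (-0.42 and -0.41, adjusted p = 5.36e-06 and 1.2e-05), and each raised 1 of the 15, Orc2 (0.56 and 0.43, adjusted p = 0.000211 and 0.00331). Ticrr stood at 9.81 ± 0.18 (n = 4) and 9.28 ± 0.03 (n = 4) in natural receptor cells without and with IL-22. In synthetic receptor cells it was 9.76 ± 0.09 untreated, 9.34 ± 0.08 with GFP-mCherry and 9.35 ± 0.04 with mCherry-Fc (n = 6 each).

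Checkpoint genes, 12 of them measured, fell in 3 cases with IL-22 and rose in 0. Cdkn1b, the Cdk inhibitor p27, went from 9.39 ± 0.20 (n = 4) to 8.10 ± 0.60 (n = 4), a change of -1.29 (SE 0.16, limma's adjusted p = 6.61e-07). This SE also draws on the synthetic groups, with SDs of 0.05 to 0.08, so it may understate the spread with IL-22. Leaving out single arrays was not tried for Cdkn1b. Wee1, the kinase that Cdc25a opposes, fell by 0.64 (SE 0.07, adjusted p = 2.32e-08), and Fbxo5, an inhibitor of the anaphase-promoting complex, by 0.57 (SE 0.09, adjusted p = 1.52e-05). On synthetic receptors none of these 3 passed. The checkpoint genes called there were Cdc25b (0.27 and 0.31) and Rad1 (0.33 and 0.32), raised by both proteins, and Cdc25c (0.30), raised by mCherry-Fc.

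Of 20 further E2F targets and chromatin assembly genes, IL-22 lowered 4, namely Esco2 (-0.66), Ccne2 (-0.44), Rad51ap1 (-0.30) and Brca1 (-0.27), and raised 0. Esco2 and Ccne2 had SDs of 0.43 and 0.34 with IL-22, against 0.18 and 0.14 untreated. As for Cdkn1b, the SE of these genes may understate the spread with IL-22, and leaving out single arrays was not tried. GFP-mCherry raised 3 and lowered 5, with Ccne1, cyclin E1, at 0.44 (adjusted p = 1.59e-05) and E2f8, a repressor of S phase genes, at -0.60 (adjusted p = 5.78e-05). mCherry-Fc raised 4 and lowered 1, with Ccne1 at 0.27 and E2f8 at -0.39. Of 21 further fork genes IL-22 raised Top1 (0.85, adjusted p = 4.79e-07) and Pole2 (0.49) and lowered Timeless (-0.35). GFP-mCherry and mCherry-Fc each raised 6 of the 21 and lowered 0, led by the polymerase δ subunit Pold2 (0.50 and 0.48, adjusted p = 1.59e-05 and 4.44e-05). Among all genes with a mean of at least 7, 33.6% and 33.4% were higher and 11.8% and 8.47% lower.

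Of 17 further nucleotide supply genes measured, GFP-mCherry raised 11 and lowered 1, and mCherry-Fc raised 10 and lowered 1, with median changes of 0.24 and 0.21, against 0.08 and 0.09 over all genes with a mean of at least 7, while IL-22 raised 1, Gmps (0.45, adjusted p = 0.00218), and lowered 0. Umps, which makes UMP, rose by 0.45 and 0.46 (adjusted p = 1.12e-06 and 2e-06), Atic, an enzyme of purine synthesis, by 0.35 and 0.36 (adjusted p = 1.4e-05 and 1.6e-05), and Dtymk, thymidylate kinase, by 0.38 and 0.33 (adjusted p = 5.33e-05 and 0.000418). Of 8 replication-dependent histone genes measured, GFP-mCherry raised 4 and mCherry-Fc 2, with H2ac4 at 0.97 and 0.86 (adjusted p = 6.51e-06 and 5.67e-05) and H1f5 at 0.48 and 0.37. IL-22 changed 0 of the 8 (3 at an unadjusted p under 0.05). Between the untreated lines, 3 of the 15 licensing, 5 of the 21 fork, 4 of the 17 nucleotide, 2 of the 20 E2F target, 2 of the 12 checkpoint and 1 of the 8 histone genes were higher in synthetic receptor cells, and 0, 0, 4, 1, 0 and 0 lower. Over all genes 8.6% were higher and 6.62% lower in that comparison. Among genes with a mean of at least 7 it was 22.2% and 13.7%, so the lists' shares of higher genes lay near or below that of the brighter set.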

How the data were processed

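Each of 26 RNA samples was hybridised to 1 array, and the number of arrays limits the precision. The authors deposited log2 intensities per probe set, made with Affymetrix Expression Console 4.0 per the submitters' processing notes; the summarisation, background correction, normalization and genome build are not given in the sources used here. Values ran from 1.79 to 14.31, and array medians from 6.06 to 6.28. Of 35556 probe sets 21789 carry a single gene symbol, 1621 several and 12146 none in the platform annotation. For the 999 genes with several probe sets the brightest on average was used, which left 19938 genes.

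All 5 groups were fitted together with limma 3.58.1 (lmFit and eBayes, two-sided, R 4.3.3), and p-values were adjusted over the 19938 genes by the Benjamini-Hochberg method, with a threshold of 0.05. The fit was tested on simulated data. The labels do not say that arrays of a group came from separate cultures, so p-values measure the spread between these samples, which may be technical. In each comparison up to 15 called members with the smallest p were named, and from each other list up to 4 called genes. The members and lists were chosen with earlier results of these data known.

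Deviations from the group means correlated between same-numbered arrays at 0.31 to 0.62 for IL-22 and untreated (3 pairs). The range was 0.26 to 0.47 for mCherry-Fc and untreated (3 pairs) and 0.11 to 0.27 for GFP-mCherry and mCherry-Fc (3 pairs). For GFP-mCherry and untreated they ran from -0.15 to 0.42 (6 pairs). In each comparison some arrays matched another number better than their own, so these correlations do not establish pairing. The main p-values come from group means without a replicate block, and calls lost with the block are named beside them. Alternatives were another normalization, other probe set rules, filters on dim genes (a mean of at least 5 or 7), another variance prior, fewer groups in the fit, the replicate number as a block, the number range as a term, fits within a range and each array left out in turn.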

Additional observations from a re-analysis of the deposited data

Results flagged for a closer look

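The values of each of the 47 members, and the members' median, were examined in each of the 5 groups, 240 sets of 4 or 6 arrays in all. In 8 of them (3.33%), each of a member, 1 array lay far from the others of its group by Dixon's criterion, where chance alone gives about 1 in 20. Untreated synthetic replicate 13 was high for Gins3 (8.23, the others 7.98 to 8.04) and Uhrf1 (9.83, the others 9.54 to 9.63), and untreated synthetic replicate 11 for Tk1 (9.40, the others 9.06 to 9.17). mCherry-Fc replicate 10 was low for Rfc4 (10.31, the others 10.39 to 10.42) and Pola1 (8.87, the others 9.05 to 9.11). GFP-mCherry replicate 9 was low for Gins4 (8.90, the others 8.99 to 9.04), and replicate 12 was high for Cdk2 (10.56, the others 10.28 to 10.39). IL-22 replicate 5 was low for Pole (9.10, the others 9.36 to 9.41).

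The response on synthetic receptors differed from that to IL-22 in the test of the difference itself (limma, Benjamini-Hochberg adjusted) for 13 members with GFP-mCherry. The differences were 0.68 for Orc1, 0.58 for Cdc6, 0.58 for Gins3, 0.57 for Cdca7, 0.48 for Cdt1, 0.44 for Slbp, 0.42 for E2f1, 0.41 for Mcm5, 0.38 for Gins4, 0.33 for Tk1, 0.31 for Mcm6, 0.29 for Rpa1 and 0.27 for Mcm7. With mCherry-Fc 14 members differed, by 0.60 for Cdca7, 0.58 for Slbp, 0.56 for Cdc6, 0.53 for Cdt1, 0.52 for Gins3, 0.49 for E2f1, 0.49 for Orc1, 0.38 for Mcm5, 0.36 for Gins4, 0.34 for Mcm6, 0.30 for Mcm7, 0.29 for Mcm3, 0.26 for Dut and 0.25 for Rpa1. Both sets are on the log2 scale and share the IL-22 and untreated arrays. Over all genes 9.23% and 8.76% were higher and 4.4% and 4.6% lower (13.6% and 13.4% in either direction). Among genes with a mean of at least 7, 25.3% were higher in both tests, and the member counts are not read as a trait of the members. The line, its replicate numbers and the protein given cannot be told apart in these differences.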

How the results depend on the processing

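For most settings in this section the share of all genes called is not given. The member counts thus show how the calls move with the setting, and are not read as a trait of the members. Fits within the low and high replicate numbers were chosen after seeing the data. Within the high numbers, where 1 IL-22 array is assumed to vary like the other groups, IL-22 raised 0 members and lowered 1, GFP-mCherry raised 4 and lowered 4, and the higher responses on synthetic receptors numbered 2 (GFP-mCherry) and 3 (mCherry-Fc). Cdc6 turned there, to 0.13 with IL-22 and -0.01 in the difference of the GFP-mCherry and IL-22 responses. Within the low numbers, 24 members had a higher GFP-mCherry than IL-22 response (median 0.27). GFP-mCherry against mCherry-Fc had a median of 0.04 (low, 1 member lower) and -0.07 (high). Quantile normalization gave 7 members higher with GFP-mCherry, 2 lower with mCherry-Fc, and 1 lower in each difference of responses. Centring gave 23 higher and 1 lower with GFP-mCherry and 29 higher with mCherry-Fc. With the number range as a term IL-22 raised 4. With only the groups compared in the fit, IL-22 lowered 4 and 6 members were higher in untreated synthetic receptor cells. The cause was not tested.

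Leaving out 1 array at a time, IL-22 raised 2 to 3 members and lowered 8 to 14 (median -0.13 to -0.06), GFP-mCherry raised 7 to 12 and lowered 2 (median 0.06 to 0.09), and mCherry-Fc raised 7 to 11 and lowered 1 (median 0.07 to 0.10). GFP-mCherry against mCherry-Fc called 0 (median -0.03 to -0.01). Between the lines 10 to 20 were higher and 2 lower (median 0.13 to 0.18). The differences of responses had 12 to 16 members higher and 0 to 1 lower (GFP-mCherry, median 0.09 to 0.19) and 9 to 14 higher and 0 lower (mCherry-Fc, median 0.14 to 0.22), with 9 without IL-22 replicate 1. Of 1995 values of single called genes over all alternatives, 1735 kept direction and call, 258 kept direction alone and 2 turned.

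With the replicate number as a block, IL-22 raised 2 and lowered 10, and mCherry-Fc raised 8 and lowered 1. The differences of responses had 15 and 13 higher, and GFP-mCherry against mCherry-Fc called 0. The deviations of same-numbered GFP-mCherry and untreated arrays correlated at -0.15 to 0.42, with 4 of 6 above 0.1. For GFP-mCherry against untreated the block gave 11 members higher and 2 lower, with 6562 calls over all genes.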
